A study of Homo sapiens with 12 samples.

Results

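The polysome-associated mRNAs of 10 genes were followed in 12 libraries from 3 established human triple-negative breast cancer (TNBC) lines: 7 transcription factors that drive epithelial-mesenchymal transition (SNAI1, SNAI2, ZEB1, ZEB2, TWIST1, TWIST2 and PRRX1), the intermediate filament gene VIM, and the mesenchymal cadherins CDH2 and CDH11. The members were taken by symbol from 24559 gene symbols with a row in the deposited table. All 10 were among the 16538 genes with enough counts to be tested. TWIST1, TWIST2 and PRRX1 passed that filter only through their SUM159 and BT549 libraries, since they had no counts in MDA-MB-231. Each member was counted over its listed transcripts, from 1 of 1 for SNAI1 to 46 of 50 annotated for ZEB2.

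MDA-MB-231 and SUM159 were each studied as EV control cells and as TRMT112 knockdown (KD) cells, and BT549 as EV control cells and TRMT112 overexpression (OE) cells, with 2 libraries in each of the 6 groups. The labels list no treatment of the cultures, and all groups were exposed briefly to cycloheximide before lysis, which holds ribosomes on the mRNA. TRMT112 is a cofactor shared by several methyltransferases that modify rRNA, tRNA and proteins. According to the methods, the KD cells received a GIPZ plasmid with a TRMT112 shRNA and were selected with puromycin, and the OE cells received a TRMT112 open reading frame in pReceiver-M02 and were selected with G418. The labels name the control of both KD lines EV, whereas the methods name a non-silencing shRNA in the same vector for it, and an empty pReceiver-M02 plasmid for BT549. The lines also grew in different media, with insulin and hydrocortisone for SUM159 alone, so that line, medium and vector cannot be told apart in comparisons between lines. Lysates were run on sucrose gradients, the polysome fractions were pooled, and their RNA was sequenced. There were no libraries of total RNA, so the amount of an mRNA and its loading with ribosomes cannot be told apart, nor can fewer cells with an mRNA and less of it in each cell. Nothing in the labels says that the 2 libraries of a group came from separate cultures, and the p-values measure only the spread between these libraries.

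Epithelial-mesenchymal transition is the program by which cells give up cell-cell junctions and polarity and take on a motile, matrix-producing state. SNAI1 and SNAI2 are zinc finger repressors, and ZEB1 and ZEB2 carry zinc finger clusters at both ends of the protein. These 4 factors bind E-boxes, short DNA letters in the promoters of junction genes such as CDH1, and recruit corepressors there. TWIST1 and TWIST2 are basic helix-loop-helix factors, and PRRX1 is a homeodomain factor of the limb and head mesenchyme. VIM encodes vimentin, the main intermediate filament of mesenchymal cells, and CDH2 (N-cadherin) and CDH11 (OB-cadherin) join mesenchymal cells to each other. TNBC lines of the kind studied here are known for a mesenchymal state with little CDH1.

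The E-box letters were looked up in the promoters of the members and of the epithelial genes, because the SNAI and ZEB members bind E-boxes. A promoter window here is 250 bases before and 50 bases after a RefSeq start site (GRCh38.p14), and the motif is CAGGTG read on either strand, which on the opposite strand reads CACCTG. The table gave windows for 6 of the 10 members, 13 in all. ZEB1 alone of these 6 held the motif, in 2 of its 7 windows. Over all genes with a window, 24.1% of 27305 held it in at least 1 window, and a gene with many windows has more places for a match. Counted by window, 15.4% of the 13 member windows held it, against 20.6% of all 35116 windows. The ZEB1 windows with the motif are shown because the summed ZEB1 counts were called lower in all 3 comparisons described below, and 1 window each of OCLN (occludin of tight junctions) and DSP (desmoplakin of desmosomes) because these junction genes changed by a large factor. Capitals mark the motif and all windows are on the plus strand of GRCh38.p14.
ZEB1, chr10:31318167-31318466: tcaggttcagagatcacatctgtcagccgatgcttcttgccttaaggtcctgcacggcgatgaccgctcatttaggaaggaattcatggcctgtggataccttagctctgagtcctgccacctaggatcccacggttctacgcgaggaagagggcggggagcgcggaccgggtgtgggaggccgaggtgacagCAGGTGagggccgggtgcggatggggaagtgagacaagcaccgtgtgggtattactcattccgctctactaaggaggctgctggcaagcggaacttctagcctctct
ZEB1, chr10:31318966-31319265: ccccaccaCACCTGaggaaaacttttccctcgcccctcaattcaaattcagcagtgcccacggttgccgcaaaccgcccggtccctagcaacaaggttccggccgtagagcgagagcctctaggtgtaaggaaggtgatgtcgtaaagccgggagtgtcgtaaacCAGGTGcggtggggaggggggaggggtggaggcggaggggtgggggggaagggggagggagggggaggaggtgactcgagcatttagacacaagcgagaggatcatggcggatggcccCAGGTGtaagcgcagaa
OCLN, chr5:69492297-69492596: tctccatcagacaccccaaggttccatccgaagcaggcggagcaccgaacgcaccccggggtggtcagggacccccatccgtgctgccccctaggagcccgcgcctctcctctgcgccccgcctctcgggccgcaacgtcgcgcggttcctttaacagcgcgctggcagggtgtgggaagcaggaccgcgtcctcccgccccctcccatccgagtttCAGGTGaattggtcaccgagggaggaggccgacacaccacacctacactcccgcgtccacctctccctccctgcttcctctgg
DSP, chr6:7541421-7541720: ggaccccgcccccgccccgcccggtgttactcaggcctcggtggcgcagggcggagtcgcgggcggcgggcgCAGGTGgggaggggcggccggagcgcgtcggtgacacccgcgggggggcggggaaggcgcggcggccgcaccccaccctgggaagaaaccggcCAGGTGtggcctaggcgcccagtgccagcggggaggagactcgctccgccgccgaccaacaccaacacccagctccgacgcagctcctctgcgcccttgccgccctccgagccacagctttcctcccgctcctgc
The first ZEB1 window lies before the GENCODE 44 start of the gene and holds the motif at position -57 from its RefSeq start site. The second lies past that start and holds it at -242, -85 and 34. In the OCLN window shown the motif began at -33, and in the DSP window at -178 and -85. A second OCLN window that overlaps the one shown also held the motif, at -133 and 36, and is not printed. A match describes these letters and is not a measured binding site.

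TRMT112 itself was at 4147 and 3938 normalized counts in MDA-MB-231 EV and at 1764 and 1682 in KD, at 6332 and 6566 in SUM159 EV and at 3909 and 3699 in KD, and at 3076 and 3087 in BT549 EV and at 4286 and 4319 in OE. A normalized count is a count scaled by TMM, edgeR's factor for library composition, to a common library of 23907944 reads. In each line the groups did not overlap and moved as labelled. The library totals lay between 22954226 and 27434677 expected counts, and a count of 0 in a library allows up to 3 counts, for counting error only. CDH1, the epithelial cadherin, had means of 0.00 to 57.2 normalized counts in the 6 groups, KRT18 had means of 8788 in MDA-MB-231 EV and 6.05 in BT549 EV, and ESR1 had no row. RB1 had means of 46.9 in BT549 EV and 138.1 in OE against at least 506.5 in the other lines, while CDKN2A had 32261 and 26508 in BT549 and at most 14.7 elsewhere.

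The 3 control groups differed in which members they held. MDA-MB-231 EV had no TWIST1, TWIST2 or PRRX1, SUM159 EV had next to no CDH11, and BT549 EV had little SNAI1. Between BT549 EV and MDA-MB-231 EV all 10 members passed the test (edgeR quasi-likelihood, Benjamini-Hochberg adjusted p-value under 0.05), 9 higher in BT549 and 1 lower, where 79.5% of all genes tested passed, 39.1% higher and 40.4% lower. Between BT549 EV and SUM159 EV 4 members were higher and 4 lower in BT549, with 78.4% of all genes passing (37.7% higher, 40.7% lower), and CDH11 was among those higher. Between MDA-MB-231 EV and SUM159 EV 2 members were higher and 7 lower in MDA-MB-231, where 75.7% of all genes passed (36.4% higher, 39.2% lower). The members' counts are read against these high shares. In both comparisons with MDA-MB-231 they include TWIST1, TWIST2 and PRRX1, which had no counts there and passed the filter only through the other lines. For these genes the calls restate that absence. The pairs of control groups that did not pass the test were BT549 and SUM159 for ZEB2 (log2 difference -0.09, adjusted p = 0.227) and VIM (0.03, adjusted p = 0.279), and MDA-MB-231 and SUM159 for SNAI1 (-0.19, adjusted p = 0.309). For VIM this rested on the scaling, with 0.11 by RLE (adjusted p = 0.000729), 0.11 by DESeq2 (adjusted p = 5.78e-05) and -0.18 by library size alone (adjusted p = 3.49e-07). ZEB2 also passed by library size alone (-0.30, adjusted p = 0.000274), and for its most counted transcript the sign turned (1.11, adjusted p = 0.0254). CDH2 was 506.1-fold higher in SUM159 EV than in MDA-MB-231 EV, with an exact 95% counting interval of 232.2 to 1380, and CDH11 was 159.6-fold higher in MDA-MB-231 EV than in SUM159 EV (43.9 to 1323). SNAI1 was 10.3-fold lower in BT549 EV than in MDA-MB-231 EV (log2 difference -3.37, SE 0.27, adjusted p = 4.87e-11).

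**Figure D1:**
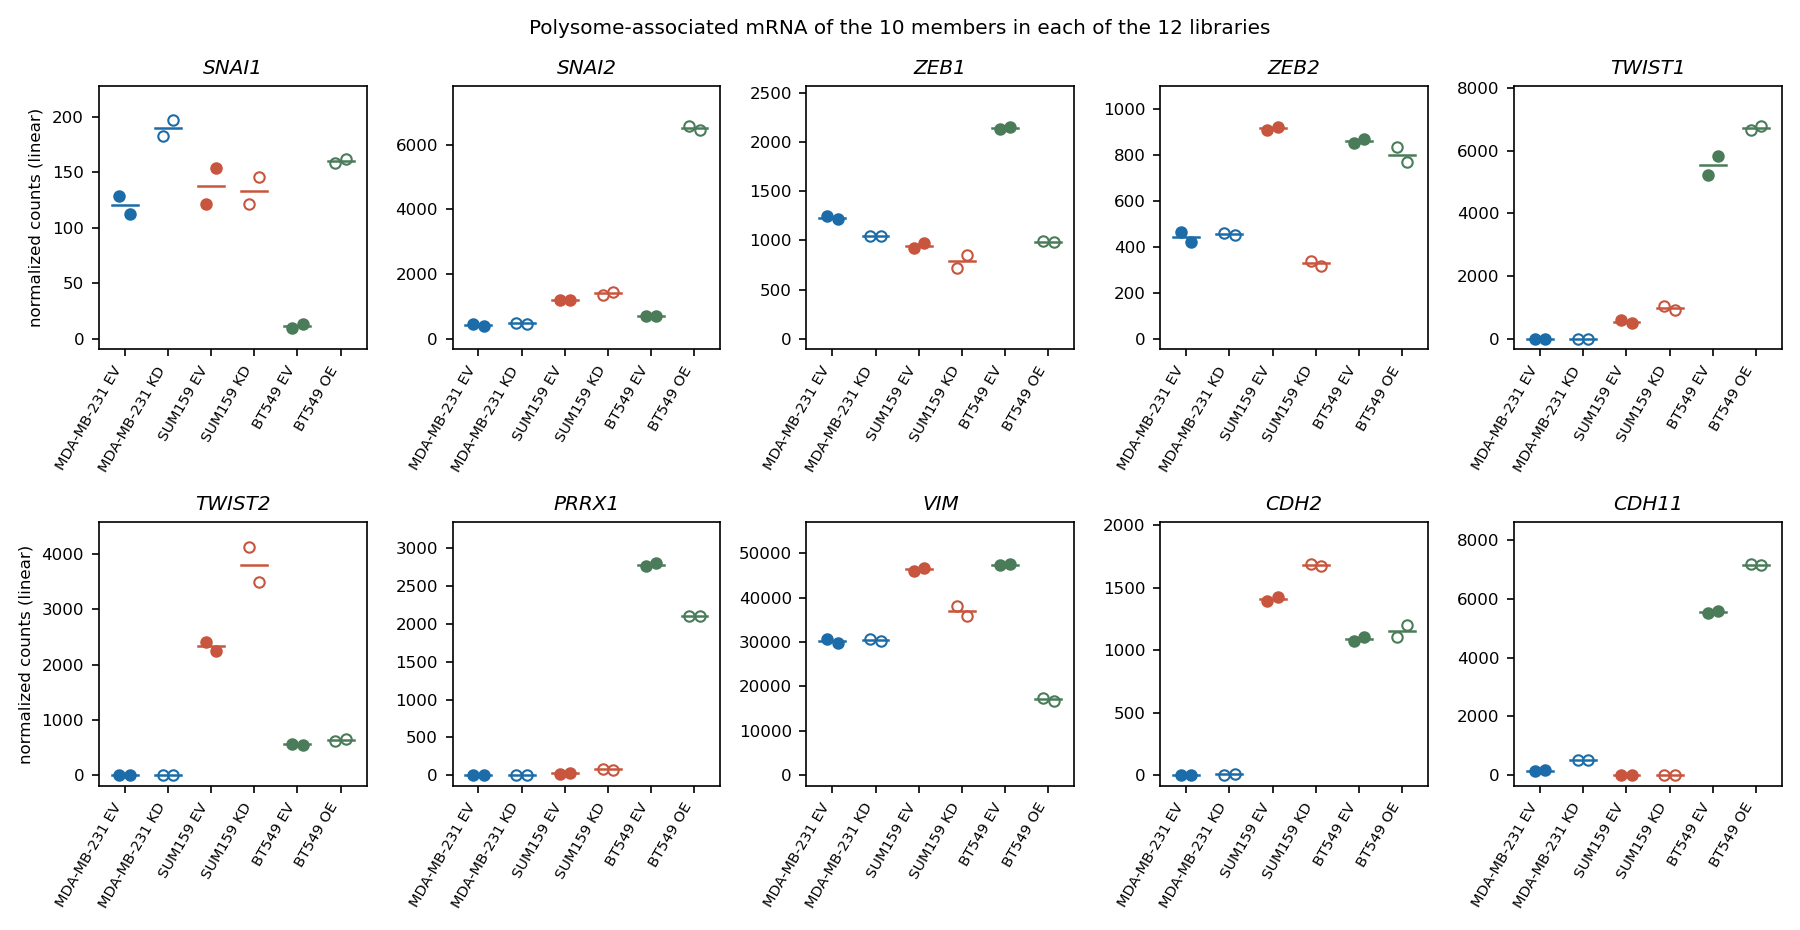
Normalized counts (linear axes) of the 10 members in the 12 libraries, 1 panel per gene. Filled circles are EV libraries, open circles are KD or OE libraries, each a library, and bars are means of 2. TWIST1, TWIST2 and PRRX1 lie at 0 in all 4 MDA-MB-231 libraries, SNAI2 rises from about 695 to 6506 in BT549 OE, and VIM falls there to 17136.

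Levels of different genes can only be set side by side per length, as TPM, the share of a library's transcripts that a gene makes up, computed from the expected counts and annotated transcript lengths. VIM was the most abundant member in every group, with a mean TPM of 1393 in MDA-MB-231 EV, 1866 in SUM159 EV and 1665 in BT549 EV. In MDA-MB-231 EV the transcription factors followed in the order ZEB1 (24.0 ± 0.03 TPM, SD, n = 2), SNAI2 (17.7 ± 2.98), ZEB2 (9.81 ± 0.14) and SNAI1 (6.09 ± 0.59), with CDH11 at 5.03 ± 0.07 and CDH2 at 0.11. The libraries of neighbouring genes in that order did not overlap.

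In SUM159 EV, TWIST2 led the transcription factors with 135.4 ± 8.25 TPM, ahead of SNAI2 (41.5 ± 0.06) and TWIST1 (33.3 ± 0.01). CDH2 stood at 29.1 ± 1.11, ZEB2 at 18.3 ± 0.70, ZEB1 at 14.7 ± 1.13 and SNAI1 at 6.05 ± 0.97, while PRRX1 reached 0.66 and CDH11 0.02. The ZEB pair was thus ordered ZEB1 over ZEB2 in MDA-MB-231 EV and ZEB2 over ZEB1 in SUM159 EV, without overlap of the libraries.

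In BT549 EV, TWIST1 led with 298.2 ± 17.0 TPM, followed by CDH11 (129.5 ± 1.11) and PRRX1 (53.5 ± 0.31). ZEB1 (31.7 ± 1.36), TWIST2 (28.4 ± 0.52), SNAI2 (22.2 ± 1.03), CDH2 (19.6 ± 0.42) and ZEB2 (15.1 ± 0.18) lay close to each other, and SNAI1 came last with 0.45 ± 0.10. In BT549 OE the order among the factors changed to TWIST1 (348.8 ± 3.42), SNAI2 (202.0 ± 6.25), PRRX1 (40.6 ± 0.51) and TWIST2 (32.7 ± 2.29), ahead of ZEB2 (13.7 ± 0.09), ZEB1 (12.6 ± 0.24) and SNAI1 (6.11 ± 0.21). SNAI2 thus moved past CDH11, which was at 157.1 ± 0.34 TPM.

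**Figure D2:**
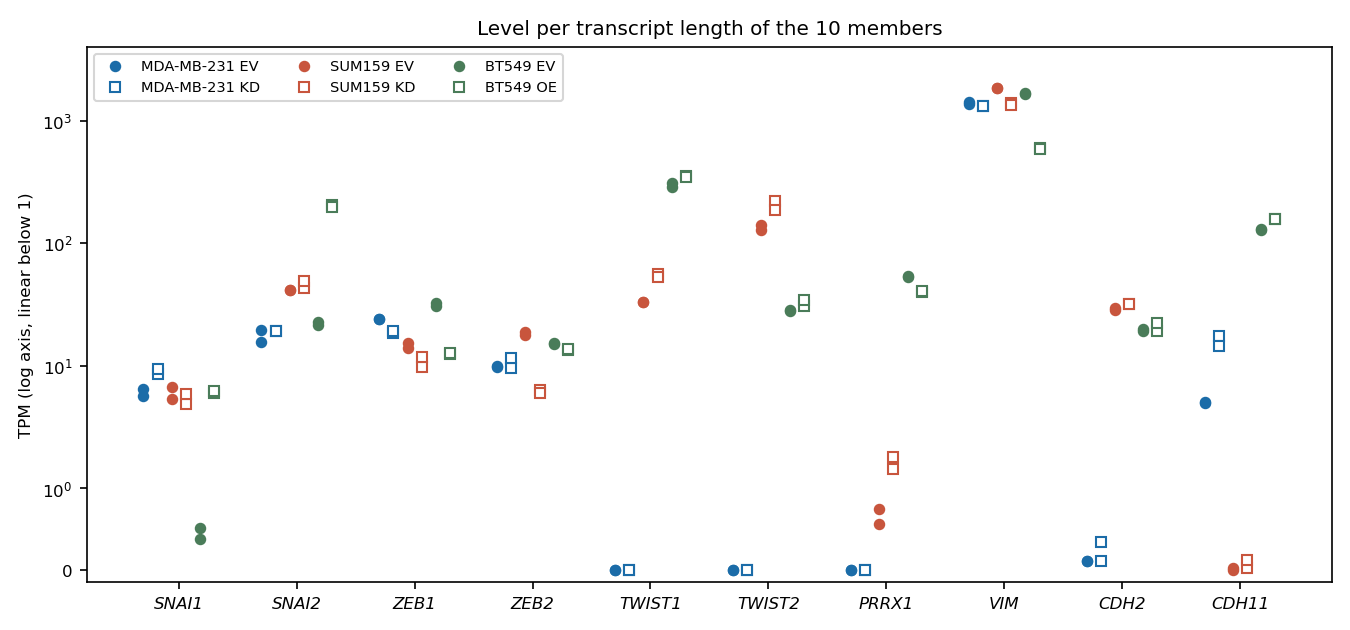
TPM of the 10 members on a log axis that is linear below 1, with every library as a point. Filled circles are EV, open squares KD or OE. VIM lies above all other members in every group, the leading transcription factor is ZEB1 in MDA-MB-231 EV, TWIST2 in SUM159 and TWIST1 in BT549.

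Both SNAI genes were higher in MDA-MB-231 KD than in EV. SNAI1, whose protein is short-lived and tightly controlled, was at 128.9 and 112.3 normalized counts in EV and 182.7 and 196.5 in KD, and the groups did not overlap. It rose 1.57-fold (log2 fold change 0.65, SE 0.16, adjusted p = 0.00221). Tested among transcripts, its only transcript had the same log2 fold change of 0.65 with an adjusted p of 0.305. The counts are the same there, so the higher p comes from the fit over all transcripts. SNAI2, also called Slug, was at 445.0 and 393.6 in EV and 498.4 and 469.2 in KD, a narrow gap between groups. Its change was 1.15-fold (log2 fold change 0.21, SE 0.07, adjusted p = 0.0273), and the call was lost in 5 settings, with log2 fold changes of 0.12 by library size alone, 0.20 with the line fitted alone, 0.13 without EV replicate 2, 0.16 without KD replicate 1 and 0.19 for its most counted transcript.

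The ZEB genes did not follow. ZEB1, at 1247 and 1216 normalized counts in EV, stood at 1041 and 1045 in KD and fell by 0.24 on the log2 scale (SE 0.06, adjusted p = 0.00324). Its most counted transcript, ZEB1-201, was at -0.14 (adjusted p = 0.77). ZEB2 was at 466.6 and 422.8 in EV and 460.9 and 453.8 in KD, so that both KD libraries lay within the EV range (log2 fold change 0.04, SE 0.08, adjusted p = 0.744). TWIST1, TWIST2 and PRRX1 had 0 counts in all 4 MDA-MB-231 libraries, so no change can be given for them. SUM159 EV was at least 196.9-fold higher for TWIST1 and at least 837.5-fold higher for TWIST2 than MDA-MB-231 EV, against 3 counts in each library. For PRRX1, whose SUM159 EV level was itself low, the bound was 9.78-fold, and against BT549 EV it was 1001-fold.

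CDH11 was the member that changed most in MDA-MB-231. It stood at 151.5 and 169.8 normalized counts in EV and at 528.4 and 504.8 in KD, and rose 3.21-fold (log2 fold change 1.68, SE 0.08, adjusted p = 4.67e-13). VIM was at 30662 and 29735 in EV and 30756 and 30177 in KD, with overlapping groups (log2 fold change 0.01, SE 0.03, adjusted p = 0.775). By library size alone, without TMM, VIM would read -0.08 (adjusted p = 0.0146). CDH2 stayed near the floor, with 6 counts over the EV libraries and 15 over the KD libraries, a ratio of 2.56 with an exact 95% counting interval of 0.94 to 8.06. Its fitted log2 fold change was 1.32 (SE 0.64, adjusted p = 0.115), and 1.89 with an adjusted p of 0.0328 without KD replicate 1. In all, 3 members were called higher and 1 lower in MDA-MB-231 KD, where 37.7% of all genes tested were called, 21.2% higher and 16.5% lower.

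**Figure D3:**
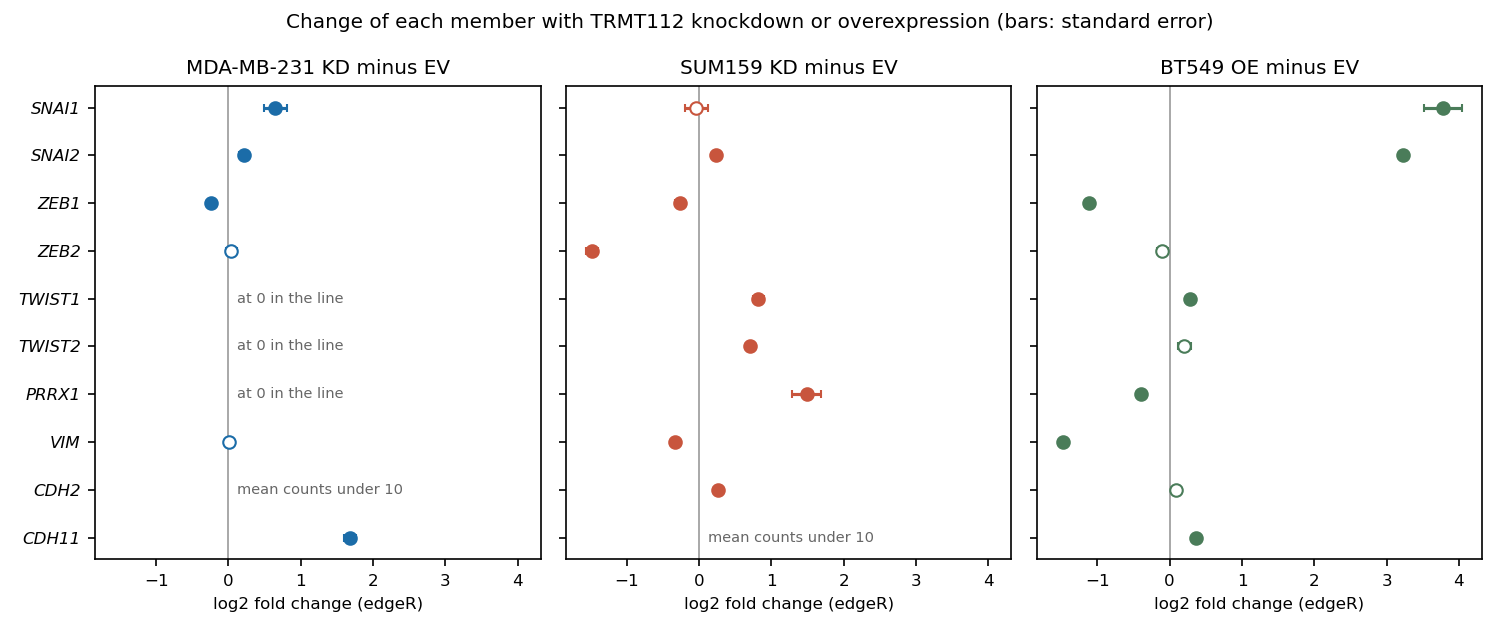
Log2 fold change of each member (linear axis, edgeR) for MDA-MB-231 KD, SUM159 KD and BT549 OE against the EV libraries of the same line. Bars are standard errors, filled points passed an adjusted p-value of 0.05 and open points did not, and genes at 0 or with means under 10 normalized counts in both groups have no point. ZEB1 lies left of 0 in all 3 panels and SNAI2 right of 0, at 0.21, 0.24 and 3.23.

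In SUM159, where all factors are present, TRMT112 KD went with less ZEB2 and more TWIST1, TWIST2 and PRRX1. ZEB2 was at 911.4 and 923.9 normalized counts in EV and at 339.7 and 317.4 in KD. It fell 2.8-fold (log2 fold change -1.48, SE 0.08, adjusted p = 4.49e-14), while its most counted transcript, ZEB2-224, was at -0.30 (adjusted p = 0.693). ZEB1, at 918.4 and 978.2 in EV, was at 723.8 and 851.0 in KD and fell by 0.26 on the log2 scale (SE 0.07, adjusted p = 0.00146). The KD libraries of ZEB1 lay wide apart, and without KD replicate 1 the change was -0.16 with an adjusted p of 0.0573. ZEB1-201 was at -0.03 (adjusted p = 0.978).

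TWIST1 went from 592.4 and 502.7 normalized counts in EV to 1032 and 912.4 in KD, and rose 1.77-fold (log2 fold change 0.82, SE 0.08, adjusted p = 1.38e-08). TWIST2 went from 2410 and 2248 to 4125 and 3483, and rose 1.63-fold (log2 fold change 0.71, SE 0.06, adjusted p = 2.86e-09). PRRX1 was low in this line, at 22.2 and 32.2 in EV and 77.6 and 76.1 in KD, and rose 2.82-fold (log2 fold change 1.49, SE 0.20, adjusted p = 1.36e-06). None of these 3 genes overlapped between the groups. The share of all genes without such overlap was not computed, and 28.6% of all genes tested were called higher in this comparison. Even after this rise, PRRX1 in SUM159 KD remained far below its BT549 levels of 2763 and 2803 in EV.

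SNAI1 was at 121.1 and 153.8 normalized counts in SUM159 EV and 121.0 and 145.3 in KD, with overlapping groups (log2 fold change -0.04, SE 0.16, adjusted p = 0.862). SNAI2 was at 1184 and 1204 in EV and 1361 and 1448 in KD, and rose 1.18-fold (log2 fold change 0.24, SE 0.05, adjusted p = 0.000467). The SNAI2 change was thus about the size of that in MDA-MB-231, and the difference between the lines was 0.03 (SE 0.09, adjusted p = 0.858). Its most counted transcript was at 0.20 in SUM159 (adjusted p = 0.0564).

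VIM was at 46019 and 46672 normalized counts in SUM159 EV and at 38034 and 35891 in KD. It fell by 0.33 on the log2 scale (SE 0.03, adjusted p = 3.04e-10), and the groups did not overlap. CDH2, at 1389 and 1426 in EV, was at 1691 and 1675 in KD and rose 1.2-fold (log2 fold change 0.26, SE 0.06, adjusted p = 0.000711). Its most counted transcript was at 0.21 (adjusted p = 0.629). CDH11 had 2.02 and 0.00 normalized counts in EV and 1.01 and 1.73 in KD, at or under the floor in both groups, and no fold is given. Of the 10 members 5 were called higher and 3 lower in SUM159 KD, and over all genes 60.1% were called, 28.6% higher and 31.4% lower.

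The difference of the KD effects of SUM159 and MDA-MB-231 was put to a direct test for the 7 members that could be fitted in both. The effect was lower in SUM159 for ZEB2, by -1.53 on the log2 scale (SE 0.11, adjusted p = 4.86e-11), for VIM, by -0.34 (SE 0.04, adjusted p = 9.19e-08), and for SNAI1, by -0.69 (SE 0.23, adjusted p = 0.0143). These 3 were the members called lower and 0 were called higher, while over all genes 50.9% passed this test, 23.2% higher and 27.7% lower. For the most counted transcript the ZEB2 difference was -0.64 (adjusted p = 0.53) and that of SNAI1, whose only transcript holds all its counts, -0.71 (adjusted p = 0.348). For SNAI1 the call was also lost without MDA-MB-231 EV replicate 2 (-0.60, adjusted p = 0.0604), without SUM159 EV replicate 2 (-0.52, adjusted p = 0.102) or without SUM159 KD replicate 1 (-0.57, adjusted p = 0.0643). For ZEB1 the difference was -0.02 (SE 0.09, adjusted p = 0.889). For CDH2 it was -1.06 (SE 0.64, adjusted p = 0.183), resting on the few MDA-MB-231 counts, and it was -1.63 with an adjusted p of 0.0451 without MDA-MB-231 KD replicate 1. For CDH11, at the floor in SUM159, it was -1.26 (SE 1.33, adjusted p = 0.495).

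BT549 OE had far more of both SNAI mRNAs than EV. SNAI1 was at 9.85 and 13.3 normalized counts in EV and at 158.4 and 161.9 in OE, and rose 13.7-fold (log2 fold change 3.78, SE 0.26, adjusted p = 5.46e-12). The OE level was in the range of the other 2 lines, whose 8 libraries lay between 112.3 and 196.5. SNAI2 was at 694.2 and 695.4 in EV and at 6572 and 6440 in OE, and rose 9.36-fold (log2 fold change 3.23, SE 0.05, adjusted p = 5.3e-24). This was above every other library, of which the highest was a SUM159 KD library with 1448.

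ZEB1 and VIM were lower in BT549 OE. ZEB1 was at 2129 and 2155 normalized counts in EV and at 997.8 and 980.3 in OE, and fell 2.17-fold (log2 fold change -1.11, SE 0.06, adjusted p = 6.89e-14). ZEB2 was at 852.9 and 870.3 in EV and 833.9 and 768.6 in OE (log2 fold change -0.10, SE 0.07, adjusted p = 0.19). VIM was at 47330 and 47473 in EV and at 17450 and 16821 in OE, the lowest level of the 12 libraries, and fell 2.77-fold (log2 fold change -1.47, SE 0.03, adjusted p = 1.53e-22). PRRX1, at 2763 and 2803 in EV, was at 2107 and 2108 in OE and fell by 0.40 on the log2 scale (SE 0.05, adjusted p = 1.22e-06).

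The other members moved less in BT549. TWIST1 was at 5230 and 5826 normalized counts in EV and 6646 and 6784 in OE, and rose 1.21-fold (log2 fold change 0.28, SE 0.05, adjusted p = 6.53e-05). Its most counted transcript was at 0.32 (adjusted p = 0.182). TWIST2 was at 570.5 and 545.9 in EV and 616.8 and 664.4 in OE (log2 fold change 0.20, SE 0.09, adjusted p = 0.0669), close to the threshold. CDH11 was at 5529 and 5591 in EV and 7190 and 7137 in OE, and rose 1.29-fold (log2 fold change 0.37, SE 0.04, adjusted p = 1.23e-08). CDH2, at 1070 and 1101 in EV, was at 1105 and 1201 in OE (log2 fold change 0.09, SE 0.07, adjusted p = 0.246). In total 4 members were called higher and 3 lower, near the 70.6% of all genes that were called in this comparison, 35.6% higher and 35.0% lower.

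Markers of fibroblasts, which also hold SNAI2, TWIST1, PRRX1, VIM and CDH11 mRNA, also differed between the groups. The summed level of 9 such markers (PDGFRA, PDGFRB, DCN, LUM, DPT, FAP, COL1A1, COL3A1 and THY1) was 13619 and 13196 normalized counts in BT549 EV and 139503 and 134583 in OE. Its largest parts in OE were THY1 (mean 11311 in EV, 67170 in OE), COL1A1 (2019 and 56239) and COL3A1 (24.2 and 13025). DCN, LUM and DPT were at or under the floor in BT549 EV and none of the 9 was in OE, where RB1 was also higher than in EV (log2 fold change 1.56, SE 0.25, adjusted p = 6.24e-06). In MDA-MB-231 the sum moved from 319.9 and 357.0 (EV) to 680.1 and 750.5 (KD), with 7 of the 9 at or under the floor in both groups. The sum in SUM159 went from 8730 and 8844 in EV to 17267 and 16854 in KD, with LUM and FAP at or under the floor in both. That rise was carried by THY1 (mean 663.7 to 7096) and COL1A1 (7448 to 9751), while PDGFRA (56.4 to 4.18), PDGFRB (240.7 to 104.4), DCN (72.5 to 27.5) and COL3A1 (301.2 to 75.0) fell. In MDA-MB-231 KD only PDGFRB of the 9 was called, from a mean of 224.2 to 584.5. Of the members named with these markers, SNAI2, TWIST1 and CDH11 were called higher in BT549 OE and VIM and PRRX1 lower. The part of these markers in the changes of the members was not tested.

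The directions of the members were set side by side between comparisons that share no library. MDA-MB-231 KD and BT549 OE are opposite changes of TRMT112, and 4 members were called in both: SNAI1, SNAI2 and CDH11 were higher in both, and ZEB1 was lower in both. All 4 therefore moved the same way although TRMT112 moved in opposite ways. Over all genes called in both, 44.4% of 5085 moved the same way. For SUM159 KD and BT549 OE, SNAI2, TWIST1, VIM and ZEB1 moved the same way and PRRX1 the opposite way, beside 55.1% of 7813 genes. For the 2 KD lines, SNAI2 and ZEB1 were called in both and moved the same way, beside 57.2% of 4726 genes.

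Transcript usage differed more for some members than for others. VIM and SNAI2 were counted almost wholly on 1 transcript, VIM-201 with 99.4% to 99.7% and SNAI2-201 with 95.9% to 99.1% of their counts, and SNAI1 has only 1. TWIST1 placed 18.6% of its counts in SUM159 EV and 19.3% in BT549 EV on TWIST1-202, a transcript annotated for nonsense-mediated decay. Those shares were 18.3% in SUM159 KD and 17.1% in BT549 OE.

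PRRX1 was split over 3 coding transcripts. PRRX1-202 held 44.3% and 27.6% of its counts in SUM159 EV and 5.19% and 6.4% in KD, on few counts, against 19.4% in BT549 EV and 20.7% in OE. ZEB2-224, the leading ZEB2 transcript in most groups, held 19.3% and 11.7% in SUM159 EV and 42.8% and 28% in KD, so its share was higher where the ZEB2 total was lower. The change of ZEB2-224 by itself was -0.30 with an adjusted p of 0.693, against -1.48 for the gene. Retained-intron transcripts of ZEB1 held 3.31% and 3.36% in SUM159 EV and 10.9% and 13.3% in KD. Expected counts divide shared reads between transcripts by a model, and these shares were not tested.

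**Figure D4:**
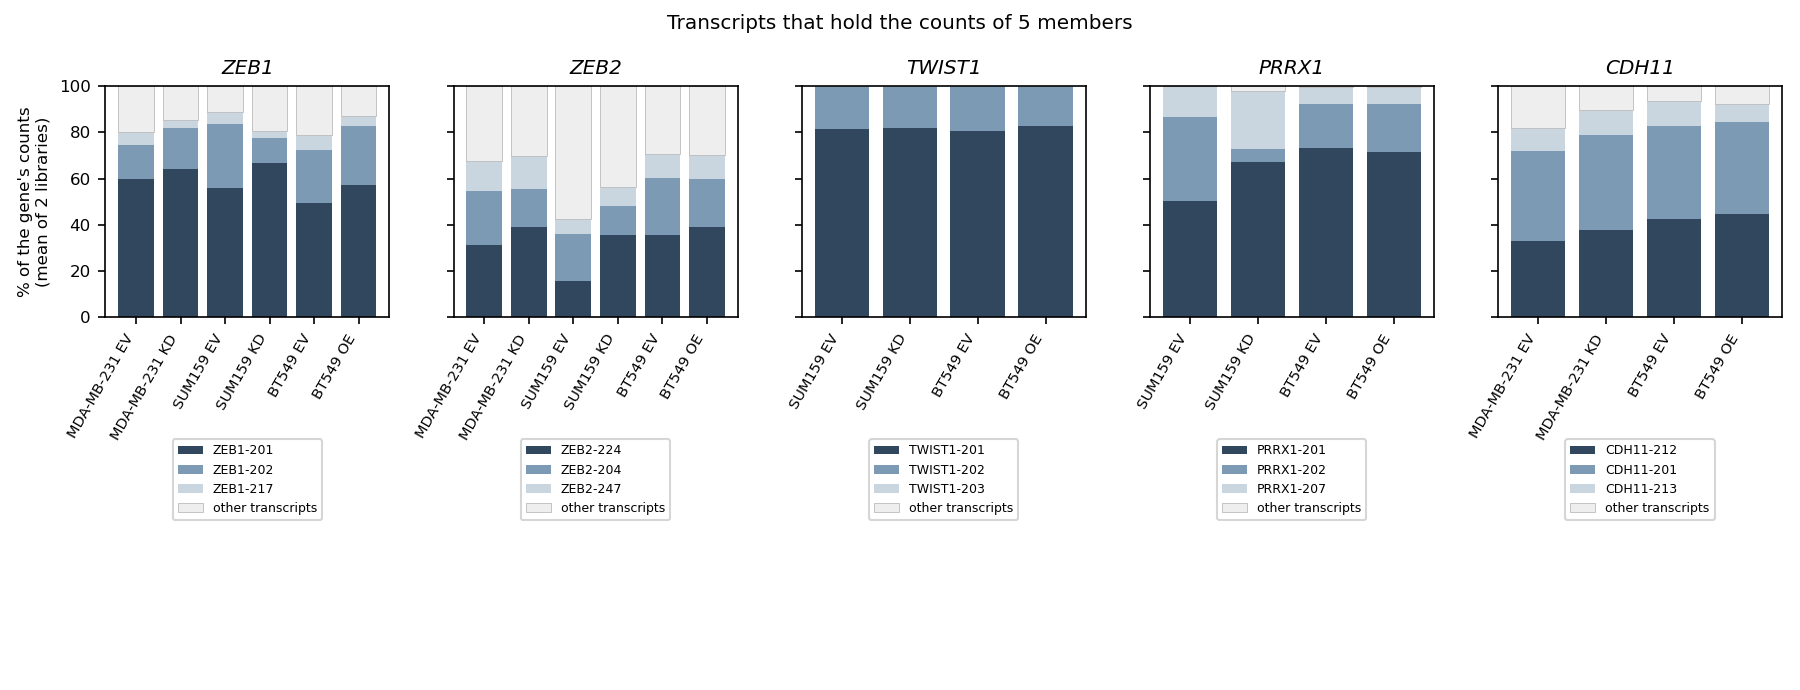
Share of each gene's expected counts (percent, mean of 2 libraries) held by its 3 most counted transcripts and by all others, for 5 members in the groups where they reach a mean of 10 normalized counts. ZEB2-224 takes 15.5% in SUM159 EV and 35.4% in KD, and PRRX1-202 takes 36% and 5.79%.

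The epithelial genes that SNAI, ZEB and TWIST factors are known to repress, listed with factors that uphold epithelial identity, were called lower more often than higher in BT549 OE. Of 26 tested, 1 was called higher and 15 lower there, beside 35.6% and 35.0% of all genes. The median log2 fold change was -1.54, against 0.02 over all genes tested. Of those called lower, CLDN3, CGN, PATJ, ELF3 and KRT19 had low BT549 EV means, from 7.14 to 18.2 normalized counts. The gene called higher, ESRP2, was also low (mean 2.21 in EV, 24.7 in OE). The median includes genes near the floor, such as EPCAM (0.55 and 0.00). KLF4, a factor that upholds epithelial identity, fell by 2.39 on the log2 scale (SE 0.05), and CLDN1, a tight junction claudin, fell by 2.80 (SE 0.09). OCLN was at 446.7 and 437.4 normalized counts in EV and 0.00 and 3.40 in OE, 263.3-fold lower with a counting interval of 89.8 to 1279. CDH1 was at 63.5 and 50.9 in EV and 17.7 and 23.8 in OE, and fell by 1.46 (SE 0.54, adjusted p = 0.0204).

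In the KD lines the epithelial list was divided. In MDA-MB-231 KD 4 were called higher and 5 lower (median -0.19, against 0.00 over all genes). In SUM159 KD 5 were higher and 8 lower (median -0.12, against 0.00). Of all genes, 21.2% were called higher and 16.5% lower in MDA-MB-231 KD, and 28.6% and 31.4% in SUM159 KD. CLDN4, a claudin, rose in MDA-MB-231 KD from 541.9 and 547.9 normalized counts to 1765 and 1750 (log2 fold change 1.69, SE 0.08, adjusted p = 7.88e-14), and KRT8, a simple keratin, rose by 0.26 there and by 0.79 in SUM159 KD. DSP fell in SUM159 KD from 227.1 and 167.9 to 13.1 and 4.32 (log2 fold change -4.54, SE 0.38, adjusted p = 3.14e-10). CLDN1 and KLF4 fell in all 3 comparisons, by 0.69 and 0.75 on the log2 scale in MDA-MB-231 KD and by 3.94 and 1.76 in SUM159 KD. Of the 18 epithelial genes with a promoter window 11 held the E-box letters (61.1%, against 24.1% of all genes with a window). OCLN and DSP were among them and CLDN1 and KLF4 not, and the 11 include RAB25, without a row, and CRB3, not tested. The list was chosen for known repression by factors that bind these letters. Its share therefore describes how the list was chosen and is not a result of these libraries.

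The mesenchymal effectors, the matrix, receptor and contractile genes of the mesenchymal state, were called higher more often than lower. Of 25 tested, 10 were called higher, 3 lower and 12 not called in MDA-MB-231 KD (median log2 fold change 0.21), 16 higher and 6 lower in SUM159 KD (0.39), and 14 higher and 9 lower in BT549 OE (1.70). The shares of all genes called higher were 21.2%, 28.6% and 35.6%, and of those called lower 16.5%, 31.4% and 35.0%. MMP2, FAP and LUM are among the 25 although they had no counts in MDA-MB-231. THY1, COL3A1, POSTN and DCN had means of 0.00 to 1.40 normalized counts in that line. PDGFRB, DCN, LUM, FAP, COL1A1, COL3A1 and THY1 are also among the fibroblast markers summed above, so both passages read the same values. SPARC, a matrix-binding glycoprotein, rose in MDA-MB-231 KD by 2.20 on the log2 scale (SE 0.07), and THY1, a surface glycoprotein, rose in SUM159 KD by 3.42 (SE 0.04) together with FN1 (fibronectin, 1.49, SE 0.04) and the receptor AXL (1.05, SE 0.02). In BT549 OE, TAGLN (transgelin) rose by 6.87 (SE 0.04), ACTA2 (smooth muscle actin) by 5.52 (SE 0.05) and COL1A1 (collagen I) by 4.80 (SE 0.04). NT5E, the ecto-nucleotidase CD73, rose by 0.74 in MDA-MB-231 KD and fell by 3.28 in BT549 OE. VIM, usually counted with these genes, was called higher in none of the 3, with log2 fold changes of 0.01, -0.33 and -1.47.

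Among 24 other transcription factors linked to the transition, 3 were called higher and 1 lower in MDA-MB-231 KD (median 0.07). In SUM159 KD 6 were higher and 10 lower (-0.15), and in BT549 OE 5 were higher and 12 lower (-0.25). The shares of all genes called were 37.7%, 60.1% and 70.6%. PRRX2, FOXF1 and HAND2 are among the 24 although they had no counts in MDA-MB-231. HAND2, a helix-loop-helix factor and possible partner of TWIST proteins, rose by 6.68 (SE 0.16) in BT549 OE, while ID4, an inhibitor of helix-loop-helix factors, fell by 2.34 (SE 0.06). In SUM159 KD the Wnt effector LEF1 rose by 1.97 (SE 0.14), and ETS1 and the inhibitor ID2 fell by 1.12 (SE 0.04) and 2.54 (SE 0.18). The T-box repressor TBX3 rose by 1.28 in SUM159 KD and fell by 1.84 in BT549 OE. In MDA-MB-231 KD the changes were small, the clearest being SOX4, which rose by 0.40 (SE 0.09).

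Corepressors and chromatin partners, through which these factors silence genes, were called in both directions. Of 24 tested, 5 were called higher and 11 lower in MDA-MB-231 KD (median -0.12) and 4 higher and 14 lower in SUM159 KD (-0.24), while in BT549 OE 11 were higher and 11 lower (0.04). The shares of all genes called lower were 16.5%, 31.4% and 35.0%, and of those called higher 21.2%, 28.6% and 35.6%. EZH2, the Polycomb methyltransferase, fell by 0.71 (SE 0.09) in MDA-MB-231 KD. PRMT5, an arginine methyltransferase, fell by 1.30 (SE 0.05) in SUM159 KD, with the deacetylase HDAC2 (0.65, SE 0.04) and the demethylase KDM1A (0.64, SE 0.04) also lower. CTBP2, a corepressor bound by ZEB proteins, rose by 0.26 (SE 0.04) in MDA-MB-231 KD and fell by 1.49 (SE 0.04) in BT549 OE.

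The kinases, ubiquitin ligases and deubiquitinases that act on these unstable proteins were called in both directions. Of 24 tested, 6 were higher and 4 lower in MDA-MB-231 KD (median 0.02). In SUM159 KD 7 were higher and 11 lower (-0.05), and in BT549 OE 5 were higher and 11 lower (-0.05). The shares of all genes called were 37.7%, 60.1% and 70.6%. FBXL5, an F-box protein of the ligase that degrades SNAI1, rose by 0.26 (SE 0.05) in MDA-MB-231 KD and by 0.49 (SE 0.05) in SUM159 KD. The kinase PAK1 fell by 2.27 (SE 0.07) in BT549 OE, and the phosphatase CTDSP2, which was listed with these enzymes, rose by 0.44 (SE 0.03) in SUM159 KD and fell by 0.54 (SE 0.03) in BT549 OE.

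**Figure D5:**
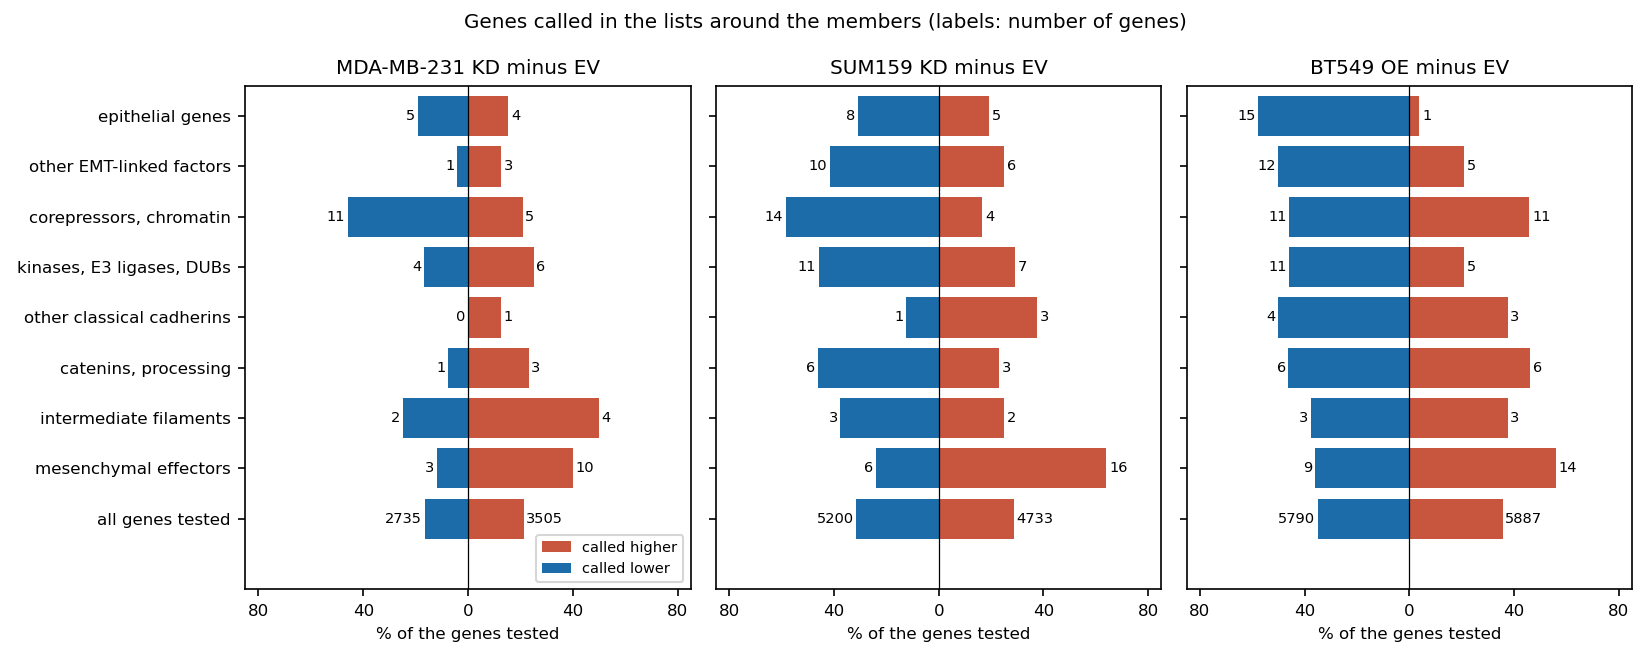
Genes called higher (right) and lower (left) in 8 lists around the members and in all genes tested, as a percent of the genes tested in each, for the 3 comparisons. Numbers at the bars are gene counts. In BT549 OE 15 epithelial genes are lower and 1 higher, and in SUM159 KD 16 mesenchymal effectors are higher and 6 lower.

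Other cadherins, classical except for CDH13, also moved, beside CDH2 and CDH11. Of 8 tested, 1 was called higher and none lower in MDA-MB-231 KD. In SUM159 KD 3 were higher and 1 lower (CDH13, log2 fold change -0.23), and in BT549 OE 3 were higher and 4 lower. The shares of all genes called were 37.7%, 60.1% and 70.6%. CDH4 (mean 0.00 normalized counts in BT549 EV, 1.12 in OE), CDH5 (0.00 and 2.82) and CDH13 (4.96 and 0.00) were near the floor. Some of the BT549 calls therefore rest on few counts. CDH6, the kidney cadherin, rose by 2.32 (SE 0.11) in SUM159 KD and by 3.08 (SE 0.13) in BT549 OE, from 83.2 and 70.9 normalized counts to 684.4 and 622.6, and was at 0 in MDA-MB-231. CDH3, P-cadherin of basal epithelium, went from 3987 and 3794 in BT549 EV to 300.1 and 338.4 in OE and fell by 3.61 (SE 0.07). CDH18 rose by 2.06 (SE 0.07) in SUM159 KD and fell by 1.40 (SE 0.21) in BT549 OE.

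Catenins and genes of cadherin processing, which link cadherins to actin or cut them, gave 3 higher and 1 lower of 13 tested in MDA-MB-231 KD (median 0.08), 3 and 6 in SUM159 KD (-0.04), and 6 and 6 in BT549 OE (-0.32). VCL (vinculin, which ties junctions to actin) rose by 0.65 (SE 0.06) in SUM159 KD and by 1.47 (SE 0.06) in BT549 OE. CTNNAL1, an alpha-catenin relative, rose by 0.57 (SE 0.03) in MDA-MB-231 KD and fell by 2.25 (SE 0.04) in BT549 OE. Among 8 other intermediate filament and linker genes, 4 were higher and 2 lower in MDA-MB-231 KD (median 0.06), 2 and 3 in SUM159 KD (-0.58), and 3 and 3 in BT549 OE (0.05). LMNA, the A-type nuclear lamin, rose by 0.24 (SE 0.03) in MDA-MB-231 KD and fell by 0.86 (SE 0.03) in SUM159 KD and by 0.77 (SE 0.03) in BT549 OE, where VIM also fell. SYNM (synemin, a partner of vimentin filaments) rose by 0.86 (SE 0.12) in BT549 OE. Beside both lists, the shares of all genes called were 37.7% in MDA-MB-231 KD, 60.1% in SUM159 KD and 70.6% in BT549 OE.

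Antisense genes lie across some members, and the labels and methods name different library kits, so whether strand was kept is not settled here. Reads of ZEB1 and ZEB1-AS1, or of VIM and VIM-AS1, cannot then be told apart with certainty. ZEB1-AS1 was at 120.4 and 114.1 normalized counts in BT549 EV and 476.2 and 395.0 in OE, and rose by 1.89 (SE 0.12) while ZEB1 fell. In MDA-MB-231 KD it fell by 0.46 (SE 0.12). VIM-AS1 had means of 20.9 to 75.8 normalized counts against at least 17136 for VIM, so its reads are few beside those of VIM. Of the 9 antisense and host genes listed, 3 had enough counts to be tested.

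Over the 12 libraries, the patterns most like those of the members were looked up among the 12589 genes whose mean reached 50 counts, by Pearson's r of log2 CPM. The genes nearest to SNAI1 were ZNRF1 and AFAP1L1 (both r = 0.983), to SNAI2 LIMS1 (0.995) and SNX18 (0.985), and to ZEB1 WDR62 (0.979) and NAMPT (0.973). ZEB2 was nearest to ZNF830 (0.987) and HNRNPDL (0.984), TWIST1 to LMF2 (0.998) and CENPB (0.997), TWIST2 to B3GNT5 (0.998) and MAP2 (0.996), and PRRX1 to GPAT4 and BNC2 (both 0.998). VIM was nearest to AKR1C3 (0.990) and RFFL (0.982), CDH2 to KCNMA1 (0.995) and SLC25A6 (0.994), and CDH11 to RRM2B (0.997) and ZFP3 (0.995). The points fall into 6 groups of 3 lines and share their libraries, and no test is given. Among the members themselves, CDH2 ran closest to TWIST2 (0.98) and TWIST1 (0.95), and SNAI1 ran opposite to ZEB1 (-0.88).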

How the data were processed

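Polysome-associated RNA was sequenced in 12 libraries, 2 in each of 6 groups taken from the labels. According to the methods, the authors used Trimmomatic for trimming, HISAT2 for alignment to GRCh38 and SAMtools to remove duplicates, and compared groups by DESeq2 after RPKM normalization. The deposited table instead holds unnormalized expected counts for 201932 Ensembl transcripts, of which 3.1% of the values above 0 are whole. The counting tool and its annotation are not given in the sources used here. In the 8 MDA-MB-231 and SUM159 columns 5.08% of rows hold a mark in place of a number. They were set to 0, and the same rows have 0.121% of BT549 counts. The table lists no transcript at 0 in all 4 BT549 libraries, so an mRNA absent from BT549 could not be seen in the other lines.

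Transcripts were matched to GENCODE 44 (79.6%, with 99.25% to 99.41% of counts), summed per symbol and rounded. With edgeR 4.0.16, genes were kept by filterByExpr, scaled by TMM and tested by quasi-likelihood in 1 model of 6 group means (6 residual degrees of freedom, common dispersion 0.000835), and called at a Benjamini-Hochberg adjusted p-value under 0.05 over 16538 genes. Listed genes without counts in a line, such as CDH6 in MDA-MB-231, stayed in the list counts and medians of that line. Replicates differed by a median of 0.08 to 0.10 log2 units. Counting intervals are exact 95% intervals. Promoter windows came from RefSeq (GRCh38.p14). The step was tested on simulated counts. Python 3.11.15, pandas 2.3.3, scipy 1.17.1, matplotlib 3.10.9 and R 4.3.3 were used.

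Named are the members, TRMT112, CDH1, label-check markers, up to 4 called genes with the smallest p from each list and comparison with a mean of at least 50 counts, and the 2 genes most like each member, and OCLN and DSP among the epithelial genes were picked for their promoter windows after their values were seen. Not every gene chosen this way is reported here. CTDSP2, a phosphatase, stands in the list of kinases and ubiquitin enzymes. The members and lists were chosen with earlier results of these data known. The results were recomputed with DESeq2 1.42.0 (Wald test), with RLE scaling or library sizes alone, without a count filter or with a minimum mean of 50 counts, with a replicate block, for each line alone, without marked transcripts, with the most counted transcript of each member, and without each library in turn.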

Additional observations from a re-analysis of the deposited data

Results flagged for a closer look

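For 3 members the KD effect differed between SUM159 and MDA-MB-231 by the test of the difference (edgeR, 2 libraries per group). For ZEB2 the log2 difference was -1.53 (SE 0.11, adjusted p = 4.86e-11), with every SUM159 KD library below its EV libraries and both MDA-MB-231 KD libraries inside the EV range. For its most counted transcript the difference was -0.64 (adjusted p = 0.53). For VIM it was -0.34 (SE 0.04, adjusted p = 9.19e-08). For SNAI1 it was -0.69 (SE 0.23, adjusted p = 0.0143), and it ranged from -0.86 to -0.52 when each library was left out in turn. Over all genes 50.9% passed the same test, and the cell line and its medium cannot be told apart in it.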

How the results depend on the processing

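Of 565 values recomputed for the members in the KD and OE comparisons, 544 kept their side of the threshold, and the called ones among them their direction. A change of sign between values that both missed the threshold counted as unchanged. SNAI1 in SUM159 KD, for example, ranged from -0.21 to 0.14 when each library was left out. Of the rest, 13 lost the threshold, 7 gained it and 1 reversed. By the same rule 134 of 140 values were unchanged for the difference of KD effects, and 593 of 600 for the EV comparisons. With the most counted transcript in place of the gene, members called in MDA-MB-231 KD went from 3 higher to 1 and from 1 lower to 0, in SUM159 KD from 5 higher to 3 and from 3 lower to 1, and in the difference of KD effects from 3 lower to 1. ZEB2 reversed in this setting between BT549 EV and SUM159 EV (1.11) and between MDA-MB-231 EV and SUM159 EV (0.03). SNAI1 has only 1 transcript, so its lost calls in this setting come from the fit over all transcripts and not from the transcript chosen. By library size only, members called lower in MDA-MB-231 KD went from 1 to 2, VIM reversed there (-0.08) and between BT549 EV and SUM159 EV (-0.18), and all genes split into 2363 higher and 4082 lower in MDA-MB-231 KD, against 3505 and 2735 with TMM. In that setting 7 of the list counts in MDA-MB-231 KD moved by over 1.5 times, such as epithelial genes called higher from 4 to 2 and corepressors called higher from 5 to 2. The cause was not tested. Leaving out each library gave 2 to 3 members higher and 1 lower in MDA-MB-231 KD, 5 higher and 2 to 3 lower in SUM159 KD, 4 to 5 higher and 3 lower in BT549 OE, and 0 higher and 2 to 4 lower for the difference of KD effects. TWIST2 in BT549 OE passed the threshold by library size only (adjusted p = 0.0433), without a filter (0.0261), with a mean of at least 50 counts (0.0285), with the line fitted alone (0.0493) and without either SUM159 KD library (0.0284 and 0.0277). The replicate block changed no count of members called, and over all genes it gave 6217 calls in MDA-MB-231 KD, 9831 in SUM159 KD and 11581 in BT549 OE, against 6240, 9933 and 11677. The deviations of same-numbered libraries correlated at 0.00, -0.03 and 0.02 in the 3 lines. No pairing by replicate number was seen in these values, which cannot show how the samples were prepared. DESeq2 and the other settings changed no count of members called by over 1.5 times. Members near the floor were measured with few counts. CDH2 in MDA-MB-231 KD was not called in the main edgeR fit (1.32, adjusted p = 0.115), and its log2 fold change was 1.89 without KD replicate 1.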
